A study of Mus musculus with 2 samples.

Results

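The genes described here are 10 that encode receptors for find-me signals and the enzymes that degrade extracellular nucleotides, taken by symbol from a table of 38293 genes in sorted lung macrophages. They are the nucleotide receptor genes P2ry2, P2ry6, P2ry14, P2rx4 and P2rx7, the ectonucleotidase genes Entpd1 and Nt5e, the adenosine receptor gene Adora2b, the sphingosine-1-phosphate receptor gene S1pr1 and the lysolipid receptor gene Gpr132. All 10 had a mean of at least 20 normalised reads over both libraries, the level from which a gene is called measured here, as did 11795 genes in all.

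Polyadenylated RNA was sequenced from 1 library of Axl-/-Mertk-/- mice, which lack the receptor kinases Axl and Mertk that recognise apoptotic cells through bridging ligands, and from 1 library of WT mice. All mice were 8 weeks old, of the C57BL/6 strain, and infected under the skin with 625 third-stage larvae of the roundworm Nippostrongylus brasiliensis, whose larvae pass through the lung; lungs were taken on day 7. The cells were sorted as CD45+, CD11c high, Siglec-F+ and CD11b low, the surface pattern of alveolar macrophages. The labels name no uninfected group and no number of mice per library. With 1 library per genotype there is no spread between animals, no p-value is given, and every interval below is an exact 95% interval that covers counting error only.

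Find-me signals are molecules that dying cells release to draw phagocytes. ATP and UTP leave through pannexin channels. Both are sensed by P2Y receptors, and ATP also by P2X receptors. Lysophosphatidylcholine, sphingosine-1-phosphate (S1P) and the chemokine fractalkine act on receptors of their own. At the cell surface CD39, the product of Entpd1, removes phosphates from ATP and ADP to give AMP, and CD73, the product of Nt5e, turns AMP into adenosine, which binds the adenosine receptors. Axl and Mertk act after this step, when the phagocyte binds the dying cell.

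The targeted genes had 3851 normalised reads for Axl in Axl-/-Mertk-/- and 24789.8 in WT, a ratio of 0.155 (0.150 to 0.161), and 2842 for Mertk in Axl-/-Mertk-/- and 6484 in WT, a ratio of 0.438 (0.418 to 0.460). The table gives 1 value per gene, so it does not show in which exons these reads lie. Depth was 15519680 reads assigned to genes in Axl-/-Mertk-/- and 15282882 in WT. One read is worth 1.18 normalised reads in Axl-/-Mertk-/- and 1.21 in WT, and a gene with 0 reads may have up to 3, which is 3.54 normalised reads in Axl-/-Mertk-/- and 3.62 in WT. Of the 10 genes only P2ry2 and P2ry6 share a chromosome with Axl or Mertk, and they lie 75.2 and 75.1 Mb from Axl on chromosome 7.

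None of the 10 genes differed by 1.5-fold between the libraries. With 10 added to each value, 3.07% of all measured genes passed this fold, 1.74% with the higher level in Axl-/-Mertk-/- and 1.33% with the lower, so a count of 0 in 10 is near the background. Of the 10, 6 had the higher value in Axl-/-Mertk-/- and 4 the lower, where 48.8% and 51.2% of all measured genes did. The median log2 ratio was 0.09 over the 10 and -0.0047 over all measured genes. The counting interval of the ratio lay above 1 for 4 of the 10 (Gpr132, Nt5e, P2rx7 and P2ry6) and below 1 for P2ry14 alone. Among all measured genes the interval excluded 1 for 21.5%, above it for 10.1% and below it for 11.4%. Among the 9511 genes with a mean of at least 100, to which all 10 belong, the interval lay above 1 for 10.9% and below 1 for 13%. Among the 3508 genes with a mean of at least 1000 it lay above 1 for 15.8% and below 1 for 19.8%, and 6 of the 10 are at that level, 3 of them above (Gpr132, P2rx7 and P2ry6) and P2ry14 below. Such an interval compares these 2 libraries and not the genotypes.

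**Figure D1:**
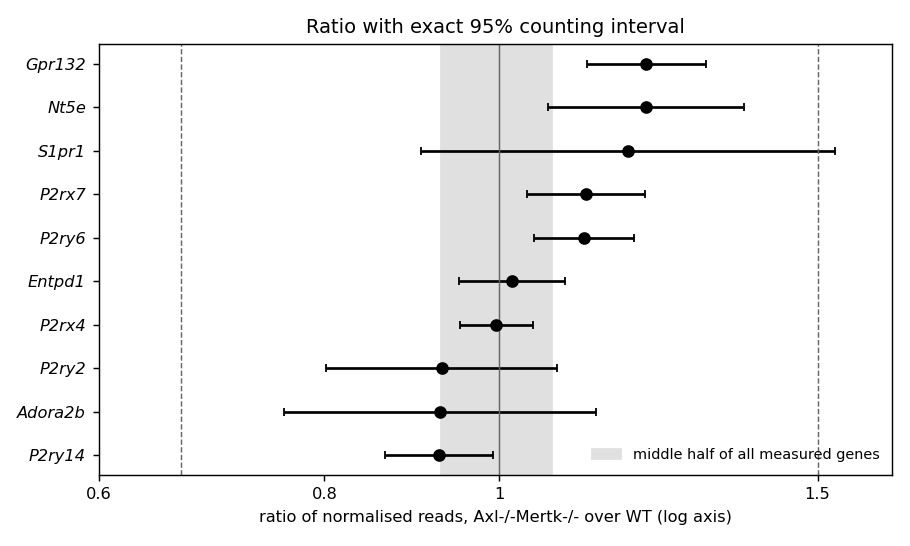
Ratio of normalised reads, Axl-/-Mertk-/- over WT, for each of the 10 genes on a log axis, with exact 95% counting intervals as bars; the grey band holds the interquartile range of all 11795 measured genes and the dashed lines mark 1.5-fold in each direction. The points run from 0.926 for P2ry14 to 1.21 for Gpr132, and the interval of S1pr1, which rests on the fewest reads, is the widest and reaches 1.53.

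The 3 sequences below are the 250 bases before the transcription start of Gpr132, which had the highest ratio, and of P2rx7 and P2rx4, neighbours in the genome whose ratios differed. They are from RefSeq on GRCm38.p6 and written 5′ to 3′ on the strand of the gene. Capitals mark the letters AGGAAG, the core bound by ETS factors such as PU.1 of macrophages, on either strand.
Gpr132, chr12:112860917-112861166, minus strand: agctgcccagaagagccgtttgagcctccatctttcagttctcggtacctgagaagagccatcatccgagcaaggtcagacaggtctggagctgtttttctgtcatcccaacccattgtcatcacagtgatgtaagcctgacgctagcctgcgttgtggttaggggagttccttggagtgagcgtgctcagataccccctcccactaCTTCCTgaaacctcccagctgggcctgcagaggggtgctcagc
P2rx7, chr5:122643677-122643926, plus strand: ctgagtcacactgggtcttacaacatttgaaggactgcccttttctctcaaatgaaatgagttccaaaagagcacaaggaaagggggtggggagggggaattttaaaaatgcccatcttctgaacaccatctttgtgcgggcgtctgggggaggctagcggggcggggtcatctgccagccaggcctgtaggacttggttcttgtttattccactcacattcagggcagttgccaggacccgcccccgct
P2rx4, chr5:122707294-122707543, plus strand: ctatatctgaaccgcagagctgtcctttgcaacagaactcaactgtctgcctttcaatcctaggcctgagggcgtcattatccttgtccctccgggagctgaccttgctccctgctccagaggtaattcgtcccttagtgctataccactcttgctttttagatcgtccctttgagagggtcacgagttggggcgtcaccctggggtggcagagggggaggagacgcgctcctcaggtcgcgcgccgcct
RefSeq windows were found for 8 of the 10 genes, 14 windows in all, of which the table gives 2 for P2rx7. AGGAAG was in 4 of the 14, among them the Gpr132 window from 43 to 38 bases before the start, on the opposite strand, the second P2rx7 window, 1 of the P2ry14 windows and the second Entpd1 window, which holds it at 2 overlapping places. The RefSeq start of Gpr132 lies inside the gene as GENCODE draws it. It was also in 29.5% of all 32851 windows of this length. The longer PU.1 form GAGGAAGT, which contains AGGAAG, was in 0 of the 14 and in 2.44% of all windows, the STAT6 form (TTC, any 4 bases, GAA) in 0 and 5.85%, and the interferon form (GAAA, any 2 bases, GAAA) in 0 and 2.98%, each searched on both strands. The core was added after the longer form gave no match. A match is a run of letters and not a shown binding site.

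Gpr132 encodes a G protein-coupled receptor that responds to lysophosphatidylcholine, oxidised fatty acids and protons, and in mice takes part in macrophage migration. It lies on chromosome 12, from 112850873 to 112868228 (GRCm38). It had 1790.7 normalised reads in Axl-/-Mertk-/- and 1486 in WT, from 1517 reads in Axl-/-Mertk-/- and 1231 in WT. It was higher in Axl-/-Mertk-/- by a ratio of 1.21 (1.12 to 1.30), the highest of the 10 though level with that of Nt5e within counting error. With 10 added to each value, 91.9% of all measured genes had a log2 ratio at or below that of Gpr132. Over the 2 libraries the closest genes to it, by distance between log2 values, were Adrbk2 (1780.1 in Axl-/-Mertk-/- and 1509 in WT), Tmem176b (1795 in Axl-/-Mertk-/- and 1516 in WT) and Gbp2 (1780.1 in Axl-/-Mertk-/- and 1441 in WT).

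Nt5e, for CD73, lies on chromosome 9 from 88327197 to 88372092. It had 670.5 normalised reads in Axl-/-Mertk-/- and 556 in WT, a ratio of 1.21 (1.06 to 1.37). Entpd1, for CD39, the enzyme one step earlier (chromosome 19, 40612366 to 40741602), had 2068 in Axl-/-Mertk-/- and 2036 in WT, a ratio of 1.02 (0.950 to 1.09). The interval of Entpd1 includes 1 and that of Nt5e lies above it. The ratio of Nt5e over that of Entpd1 was 1.19 (1.03 to 1.37); this pair and the pairs below were chosen after their values were seen. Per exon length Entpd1 exceeded Nt5e 4.76-fold (4.32 to 5.24) in Axl-/-Mertk-/- and 5.64-fold (5.09 to 6.27) in WT. With the length of the longest transcript these folds were 2.92 in Axl-/-Mertk-/- and 3.46 in WT.

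P2rx4 and P2rx7 encode cation channels opened by ATP. P2X7 needs high ATP and is known for driving potassium loss and inflammasome activation in macrophages, and P2X4 responds to lower ATP and also sits in lysosomes. The genes are neighbours on chromosome 5, both on the plus strand, P2rx7 from 122643911 to 122691432 and P2rx4 from 122707544 to 122729738, 16.1 kb apart. P2rx4 had 4292 normalised reads in Axl-/-Mertk-/- and 4309.6 in WT, a ratio of 0.996 (0.951 to 1.04). P2rx7 had 1773 normalised reads in Axl-/-Mertk-/- and 1588 in WT, a ratio of 1.12 (1.04 to 1.20). The interval of P2rx4 includes 1, and P2rx7 was slightly higher in Axl-/-Mertk-/-. The ratio of P2rx7 over that of P2rx4 was 1.12 (1.03 to 1.22). Transcripts of P2rx4 share stretches of up to 195 bases at 90% identity or more with those of 213 other genes, and transcripts of P2rx7 share up to 121 bases with 127, so part of their reads could be assigned differently; none of the other 8 genes had such a stretch of at least 100 bases. The exons of P2rx7 also hold the microRNA gene Mir8115 on the same strand.

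The P2Y receptors couple to G proteins. P2ry6, for the UDP receptor that in microglia triggers phagocytosis, lies on chromosome 7 from 100937630 to 100974649. It had 2438 normalised reads in Axl-/-Mertk-/- and 2189 in WT, a ratio of 1.11 (1.04 to 1.19). P2ry2, for the ATP and UTP receptor through which phagocytes sense these find-me signals, is its neighbour 21.9 kb away (100996568 to 101012866, minus strand as P2ry6). P2ry2 had 424 normalised reads in Axl-/-Mertk-/- and 456 in WT, a ratio of 0.929 (0.802 to 1.08) whose interval includes 1. The ratio of P2ry6 over that of P2ry2 was 1.20 (1.02 to 1.41). P2ry14, for the receptor of UDP-glucose (chromosome 3, 59113855 to 59153618), had 1896 in Axl-/-Mertk-/- and 2048 in WT, a ratio of 0.926 (0.864 to 0.992). P2ry14 was thus slightly lower and P2ry6 slightly higher in Axl-/-Mertk-/-, and the ratio of P2ry6 over that of P2ry14 was 1.20 (1.09 to 1.32). The interval of P2ry14 reached 1 when the size factors were computed from these 2 libraries alone.

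Adora2b, for an adenosine receptor of low affinity (chromosome 11, 62248984 to 62266453), had 235 normalised reads in Axl-/-Mertk-/- and 253 in WT, a ratio of 0.927 (0.760 to 1.13). S1pr1, for the S1P receptor that guides lymphocytes and stabilises endothelium (chromosome 3, 115710433 to 115715072), had 153 in Axl-/-Mertk-/- and 130.3 in WT, a ratio of 1.18 (0.905 to 1.53). Both intervals include 1, and at 130 reads in Axl-/-Mertk-/- and 108 in WT a difference of the size seen for S1pr1 was not detectable at this depth.

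**Figure D2:**
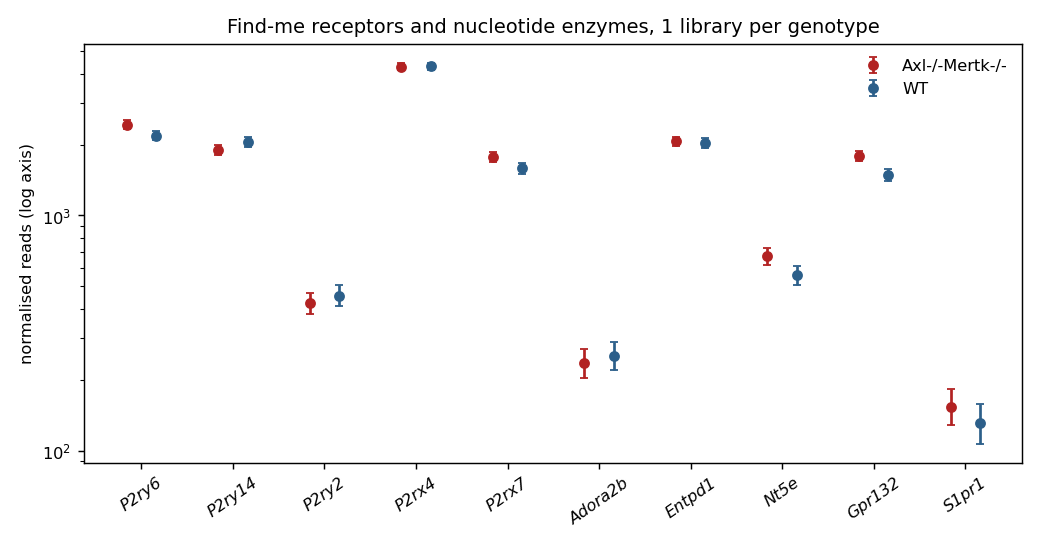
Normalised reads of each of the 10 genes (log axis) in the Axl-/-Mertk-/- library (red, left of each pair) and the WT library (blue, right), with exact 95% counting intervals as bars. The values run from 153 in Axl-/-Mertk-/- and 130.3 in WT for S1pr1 to 4292 in Axl-/-Mertk-/- and 4309.6 in WT for P2rx4, and the pair lies apart most clearly for Gpr132.

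Levels were compared between genes only per length, as reads per kilobase of merged exons scaled to one total in each library (TPM). P2ry6 was at the top in both libraries, with 131 TPM in Axl-/-Mertk-/- and 118 TPM in WT. The next were Gpr132 (102 TPM in Axl-/-Mertk-/- and 85.0 in WT) and P2rx4 (94.9 in Axl-/-Mertk-/- and 95.2 in WT), whose order was exchanged between the libraries. After them came Entpd1 (57.6 in Axl-/-Mertk-/- and 56.6 in WT), P2rx7 (46.1 in Axl-/-Mertk-/- and 41.3 in WT), P2ry14 (26.6 in Axl-/-Mertk-/- and 28.8 in WT), Adora2b (19.8 in Axl-/-Mertk-/- and 21.3 in WT), P2ry2 (16.8 in Axl-/-Mertk-/- and 18.0 in WT), Nt5e (12.1 in Axl-/-Mertk-/- and 10.04 in WT) and S1pr1 (7.83 in Axl-/-Mertk-/- and 6.64 in WT). In both libraries Adora2b and P2ry2 were the only neighbours in this order that did not differ beyond counting error, with Adora2b over P2ry2 at 1.18 (0.987 to 1.41) in Axl-/-Mertk-/- and 1.18 (0.994 to 1.40) in WT. P2ry6 exceeded P2ry2 7.82-fold (6.99 to 8.78) in Axl-/-Mertk-/- and 6.53-fold (5.84 to 7.31) in WT. With the longest transcript as length, P2rx4 stood above Gpr132 in both libraries and Nt5e above Adora2b. At that length P2ry2 also stood above Adora2b in both libraries, and Nt5e above P2ry2 in Axl-/-Mertk-/-. P2ry6 stayed at the top, with 159 TPM against 140 for P2rx4 in Axl-/-Mertk-/- and 143 against 141 in WT.

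Within the receptor families a few members held most of the transcript. P2ry6 made up 49.4% of the summed TPM of 7 P2Y receptor genes in Axl-/-Mertk-/- and 44.0% in WT, and P2ry13, for an ADP receptor, was next with 21.8% in Axl-/-Mertk-/- and 25.7% in WT. P2rx4 made up 57.1% of the P2X genes in Axl-/-Mertk-/- and 58.7% in WT, and P2rx7 27.8% in Axl-/-Mertk-/- and 25.5% in WT. P2rx2 had 0 reads in both libraries, and P2rx3, P2ry4 and Adora1 had 0 in Axl-/-Mertk-/- and 1 in WT. Adora2b made up 56.2% of the adenosine receptor genes in Axl-/-Mertk-/- and 60.7% in WT.

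**Figure D3:**
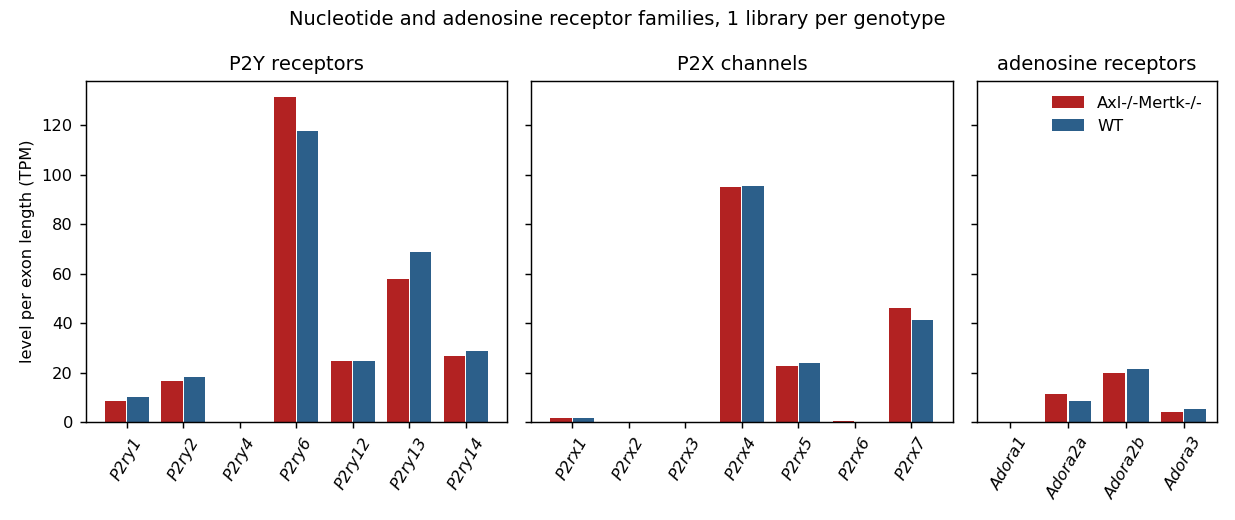
Level per exon length (TPM, axis from 0) of every P2Y, P2X and adenosine receptor gene in the Axl-/-Mertk-/- library (red, left) and the WT library (blue, right), with no error bars. P2ry6 at 131 TPM in Axl-/-Mertk-/- and 118 in WT and P2rx4 at 94.9 TPM in Axl-/-Mertk-/- and 95.2 in WT are the tallest pairs of their families.

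The other genes of these pathways come from 9 lists that hold 112 genes beside the 10. Of these, 93 were measured, and with 10 added to each value 5 had a level in Axl-/-Mertk-/- that was 1.5-fold above WT or more and 2 a level that far below. Every count past 1.5-fold in the text has 10 added in this way, and the printed ratios have not. Among the 93, Mfsd2b and Gpr55 have printed ratios past 1.5-fold and are not in these counts. Their median log2 ratio was 0.01. The interval lay above 1 for 16 of the 93 and below 1 for 17, where it did for 10.1% and 11.4% of all measured genes. The same background stands beside each list count below. Of the other P2Y receptor genes 3 of 4 were measured and all 3 were lower, with a median log2 ratio of -0.21. P2ry13 had 939.6 normalised reads in Axl-/-Mertk-/- and 1119 in WT, a ratio of 0.840 (0.763 to 0.924). The ADP receptor genes P2ry1 (237 in Axl-/-Mertk-/- and 276 in WT) and P2ry12 (401 in Axl-/-Mertk-/- and 402 in WT) had intervals that include 1, and P2ry1 shares 992 exon bases with an antisense gene. Of the other P2X genes 2 of 5 were measured, with P2rx5 at 352 in Axl-/-Mertk-/- and 366 in WT. Of the other adenosine receptor genes, Adora2a, for the receptor that dampens inflammatory cytokine output, had 222 in Axl-/-Mertk-/- and 170.2 in WT, a ratio of 1.30 (1.04 to 1.63). Adora3 had 100.3 in Axl-/-Mertk-/- and 123 in WT and shares 779 exon bases with Tmigd3, so its reads are uncertain.

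Among other nucleotide enzymes and nucleoside transporters 13 of 18 were measured, 4 higher and 9 lower in Axl-/-Mertk-/-, and the interval lay above 1 for 2 and below 1 for 5. The median log2 ratio of these enzyme and transporter genes was -0.09. Cd38, for an enzyme that consumes extracellular NAD, had 562 normalised reads in Axl-/-Mertk-/- and 401 in WT, a ratio of 1.40 (1.22 to 1.62). Adk, for the kinase that turns adenosine back into AMP, had 296 in Axl-/-Mertk-/- and 363 in WT, a ratio of 0.816 (0.687 to 0.968). Ada, for the adenosine deaminase, was the one gene of the list at least 1.5-fold lower, with 21.2 in Axl-/-Mertk-/- and 41.0 in WT, and was named after its value was seen. The nucleoside transporter gene Slc29a2 had 49.6 in Axl-/-Mertk-/- and 73.6 in WT, a ratio of 0.673 (0.443 to 1.01). Bst1, for an enzyme related to CD38, had the highest level per length, 227 TPM in Axl-/-Mertk-/- and 241 TPM in WT. Pnp, for purine nucleoside phosphorylase, is given no level per length, because its identifier in the table carries another gene's name in GENCODE vM21. Entpd4 is listed with 0 reads in both libraries and shares 3589 identical bases with Entpd4b, so its value is uncertain.

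For S1P, 16 of 17 other genes were measured, 7 higher and 9 lower. The median log2 ratio of these S1P genes was -0.03. The interval lay above 1 for 2 of them and below 1 for 3. Sphk1, for a kinase that makes S1P, had 382 normalised reads in Axl-/-Mertk-/- and 508 in WT, a ratio of 0.753 (0.649 to 0.872). The lipid phosphatase genes Ppap2b (751 in Axl-/-Mertk-/- and 892 in WT) and Ppap2c (382 in Axl-/-Mertk-/- and 326 in WT) had ratios of 0.842 (0.756 to 0.937) and 1.17 (0.996 to 1.39). Asah1, for the ceramidase that yields sphingosine, had the highest level per length of the list, 409 TPM in Axl-/-Mertk-/- and 385 TPM in WT. S1pr5 was the one gene at least 1.5-fold higher with 10 added, at 42.5 in Axl-/-Mertk-/- and 19.3 in WT. Mfsd2b, for an S1P exporter, was at 29.5 in Axl-/-Mertk-/- and 16.9 in WT, a ratio of 1.75 (0.874 to 3.63) that falls short of 1.5-fold with 10 added. Both were named after their values were seen. S1pr1 was not the S1P receptor gene with the highest level: S1pr2 had 10.6 TPM in Axl-/-Mertk-/- and 10.8 in WT, and S1pr4 9.84 in Axl-/-Mertk-/- and 9.66 in WT.

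Beside Gpr132, 13 of 18 other lysolipid and proton-sensing receptor genes and lysolipid enzymes were measured, 10 higher and 3 lower in Axl-/-Mertk-/-. Their median log2 ratio was 0.10. The interval lay above 1 for 3 and below 1 for 2. Lpar6, for a lysophosphatidic acid receptor, had 239.6 normalised reads in Axl-/-Mertk-/- and 154 in WT, a ratio of 1.55 (1.24 to 1.95), and shares 408 exon bases with Rb1 on the opposite strand. Lpcat2, for an enzyme that acylates lysophospholipids, had 754 in Axl-/-Mertk-/- and 577 in WT, a ratio of 1.31 (1.16 to 1.48). Gpr55, for a lysophosphatidylinositol receptor, had 259.7 in Axl-/-Mertk-/- and 393 in WT, a ratio of 0.660 (0.554 to 0.786), which is a log2 ratio of -0.581 with 10 added and just short of 1.5-fold. Lpar1 was at least 1.5-fold lower at 33.1 in Axl-/-Mertk-/- and 59.1 in WT, and was named after its value was seen.

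Of 9 genes of find-me signal release and the fractalkine pair, 8 were measured, 4 higher and 4 lower. Among these 8 the interval lay above 1 for 1 and below 1 for 2. Cx3cr1, for the fractalkine receptor, was the one past 1.5-fold, with 394 normalised reads in Axl-/-Mertk-/- and 229 in WT, a ratio of 1.72 (1.43 to 2.07). Cx3cr1 is also a marker of monocytes. Slc17a9, for a transporter that loads ATP into vesicles, had 310.5 in Axl-/-Mertk-/- and 392 in WT, a ratio of 0.792 (0.670 to 0.934).

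Downstream of the receptors, 28 of 30 G protein and effector genes were measured, 18 of them higher and 10 lower in Axl-/-Mertk-/-. Their median log2 ratio was 0.04, with the interval above 1 for 7 and below 1 for 2. Among all measured genes these shares were 10.1% and 11.4%, and at a mean of at least 1000 they were 15.8% and 19.8%. The 2 past 1.5-fold were the phospholipase C genes Plcb1 (1287 normalised reads in Axl-/-Mertk-/- and 439 in WT, ratio 2.93, 2.60 to 3.31) and Plcb4 (43.7 in Axl-/-Mertk-/- and 25.3 in WT). They lie 5.98 and 6.86 Mb from Mertk on chromosome 2. Of the 7 with an interval above 1, Plcb1 and Plcb2 (ratio 1.09, 1.05 to 1.14) lie within 20 Mb of Mertk. Plcb4 and Plcb2 were named after their values were seen. Adcy4, for an adenylyl cyclase, was at 159 in Axl-/-Mertk-/- and 198 in WT, and Itpr3, for a calcium channel of the endoplasmic reticulum, at 255 in Axl-/-Mertk-/- and 218 in WT. Gnai2, for an inhibitory G protein subunit, had the highest level per length, at 566 TPM in Axl-/-Mertk-/- and 547 TPM in WT. All 8 inflammasome genes that act after P2X7 were measured and 0 passed 1.5-fold. Among these 8 the interval lay above 1 for 0 and below 1 for 2. Il1b, for interleukin-1 beta, lies 0.56 Mb from Mertk. It was at 14019.9 normalised reads in Axl-/-Mertk-/- and 13969 in WT, a ratio of 1.004 (0.978 to 1.03). Il18 was at 735 in Axl-/-Mertk-/- and 874 in WT, a ratio of 0.842 (0.755 to 0.938). Nek7, for a partner of NLRP3, was at 2110.6 in Axl-/-Mertk-/- and 1978 in WT, and Pycard, for the adaptor ASC, at 725 in Axl-/-Mertk-/- and 679 in WT.

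**Figure D4:**
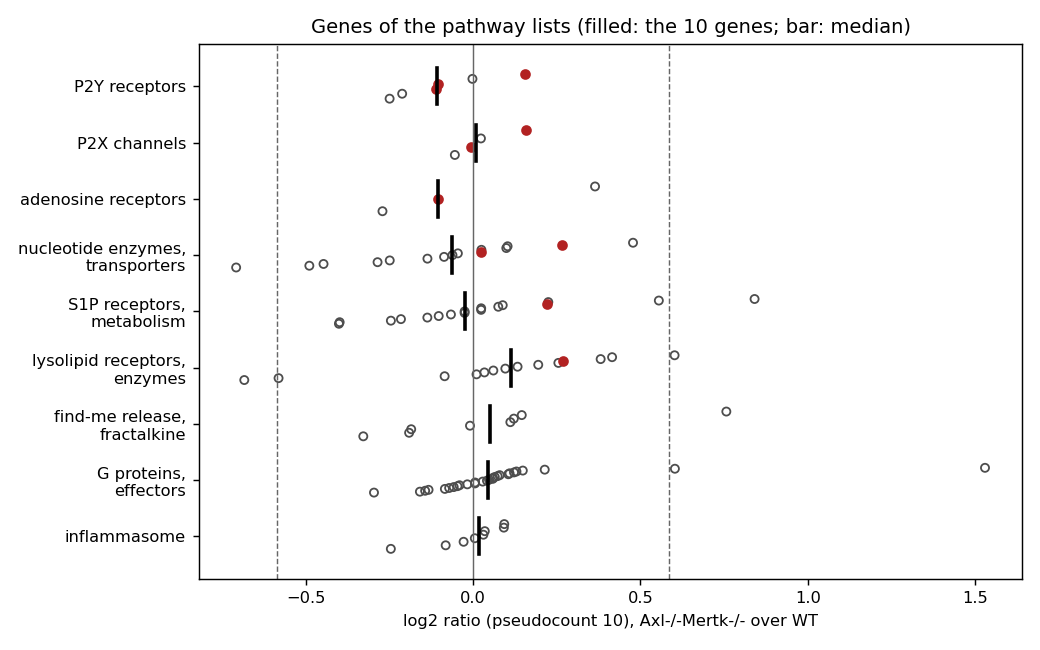
Log2 ratio (10 added to each value), Axl-/-Mertk-/- over WT, of each measured gene in the 9 pathway lists; filled points are the 10 genes, open points the others, thick bars list medians and dashed lines 1.5-fold. All filled points lie inside the dashed lines, between -0.11 and 0.27, and the farthest open point is Plcb1 at 1.53.

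Markers of the sorted cells and of other cells differed between the libraries as well, and their part in the results above was not tested. In these bulk libraries fewer cells of a type and less RNA per cell cannot be told apart. All 13 alveolar macrophage markers were measured, 11 of them lower in Axl-/-Mertk-/-, with a summed level of 1151690 normalised reads in Axl-/-Mertk-/- and 1323950 in WT, most of it Chil3. The ratios farthest from 1 among them were those of Fabp4 (2068 in Axl-/-Mertk-/- and 2706 in WT) and Cidec (984 in Axl-/-Mertk-/- and 1265 in WT). The sort markers Siglecf (2347 in Axl-/-Mertk-/- and 2566 in WT) and Itgax (39176 in Axl-/-Mertk-/- and 40087 in WT) were abundant in both. Of 11 markers of monocytes and monocyte-derived macrophages 10 were higher, with a summed level of 41887 in Axl-/-Mertk-/- and 37632 in WT, a ratio of 1.11 (1.10 to 1.13). Csf1r gave the most reads (18423 in Axl-/-Mertk-/- and 16895 in WT), Ly6c2 was at 140.5 in Axl-/-Mertk-/- and 62.8 in WT, and Plac8 at 296 in Axl-/-Mertk-/- and 144 in WT. Monocytes also express some of the 10 genes, and the share of the reads of any of them that came from monocytes was not tested.

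Some of the 10 genes are also expressed by endothelium, which the sort on CD45 should remove. Lymphocytes, which express some of them too, should be removed by the sort on CD11c and Siglec-F. The share of the reads of any of the 10 that came from such cells was not tested. Of 13 endothelial markers 12 were measured, 11 of them higher and 9 at least 1.5-fold higher in Axl-/-Mertk-/-, with a median log2 ratio of 0.87. Their sum was 5159.6 normalised reads in Axl-/-Mertk-/- and 4773 in WT, of which Vwf, the one measured marker that was lower, gave 3053 in Axl-/-Mertk-/- and 3339 in WT. Cldn5 was at 72.0 in Axl-/-Mertk-/- and 20.5 in WT and Tie1 at 51.9 in Axl-/-Mertk-/- and 18.1 in WT. T, NK and innate lymphoid markers summed to 4554 in Axl-/-Mertk-/- and 4608 in WT (8 of 13 measured, 7 higher). Most of these sums came from Cd2 (1980 in Axl-/-Mertk-/- and 2335 in WT) and Il7r (2082 in Axl-/-Mertk-/- and 1889 in WT). Cd2 was the one measured marker of this list that was lower, and Cd3e was at 35.4 in Axl-/-Mertk-/- and 33.8 in WT. B and plasma cell markers summed to 1049 in Axl-/-Mertk-/- and 1105 in WT (7 of 8 measured, 6 lower). Neutrophil markers summed to 2154 in Axl-/-Mertk-/- and 1766 in WT (6 of 10 measured, 4 higher), with Elane at 0 reads in both libraries. Csf3r gave 997 in Axl-/-Mertk-/- and 727 in WT of these sums. S100a9 was higher (264 in Axl-/-Mertk-/- and 135 in WT) and Ltf lower (54.3 in Axl-/-Mertk-/- and 95.3 in WT). Ly6g and Camp had 1 read in Axl-/-Mertk-/- and 0 in WT, and Mpo had 1 read in each library. Dendritic cell markers summed to 5570.4 in Axl-/-Mertk-/- and 5799 in WT (8 of 9 measured, 6 higher). Mgl2, which was lower, gave 3664 in Axl-/-Mertk-/- and 4114 in WT of these sums. Epithelial markers summed to 8912 in Axl-/-Mertk-/- and 10217 in WT (7 of 9 measured, 5 lower). Cdh1 gave 5916 in Axl-/-Mertk-/- and 6692 in WT of these. Fibroblast and smooth muscle markers summed to 445 in Axl-/-Mertk-/- and 514 in WT (4 of 9 measured, 4 lower). Eosinophil markers summed to 800.3 in Axl-/-Mertk-/- and 1295 in WT (3 of 5 measured, 3 lower). Alox15 gave 724 in Axl-/-Mertk-/- and 1213 in WT of these. Epx, the defining eosinophil marker, had 0 reads in Axl-/-Mertk-/- and 1 in WT.

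**Figure D5:**
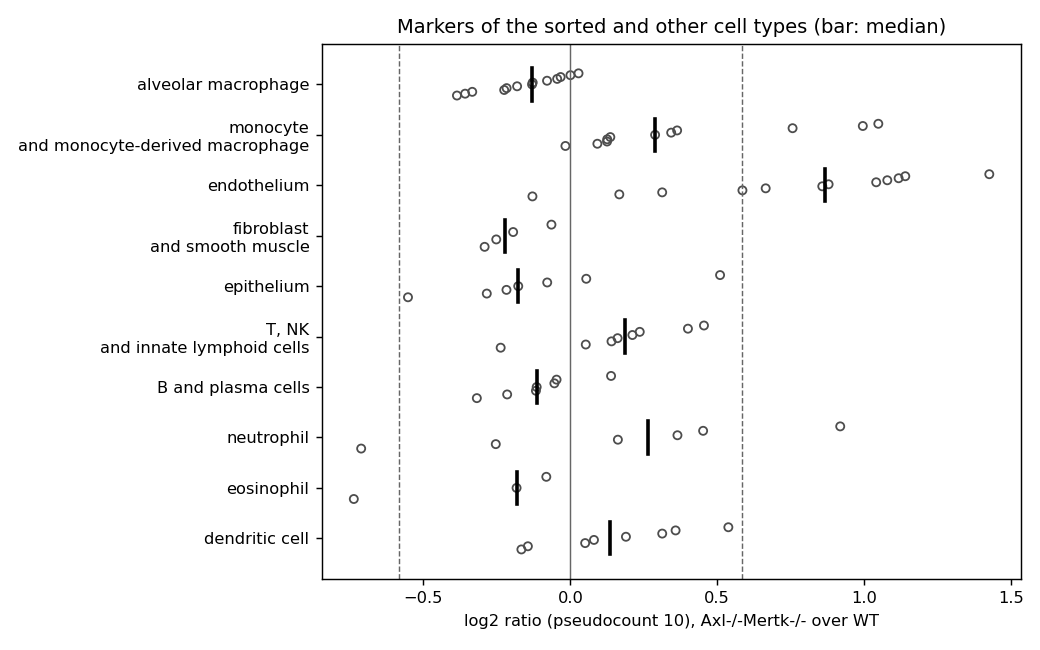
Log2 ratio (10 added to each value), Axl-/-Mertk-/- over WT, of each measured marker of the sorted cells (top row) and of 9 other groups of cells; thick bars are medians and dashed lines mark 1.5-fold. Endothelial markers have the highest median, 0.87, and alveolar macrophage markers lie mostly left of 0 with a median of -0.13.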

How the data were processed

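The deposited table holds 1 normalised signal per gene and library. Dividing it by its smallest value above 0 in the same library gave whole reads for 100% of values within 1e-06, so each library carries a single size factor. TopHat2, DESeq2 and GRCm38 are named, per the submitters' processing notes. The counting program, its strand setting and the versions: not given in the sources used here. Per the labels' protocols, libraries were strand-specific. The size factors were 0.847 for Axl-/-Mertk-/- and 0.829 for WT, and 0 columns held other samples.

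The table's columns were matched to the labels by library number. A quasi-likelihood test in edgeR needs replicates and was not run. Ratios carry exact (Clopper-Pearson) 95% intervals from the reads. They cover counting error only, and the labels mention no molecular identifiers. A gene counted as measured from a mean of 20, and log2 ratios have 10 added to each value, which understates the change of low genes. Ratios of 2 ratios carry exact conditional intervals. The intervals were also run on simulated reads with counting error alone, which is what they assume. That run cannot show how they do where libraries differ in other ways.

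Exon lengths and positions came from GENCODE vM21 (GRCm38), which held 99.2% of measured genes by identifier. Near copies were searched with BLAST+ 2.17.0 (at least 90% identity over 100 bases). Python 3.11.15, numpy 2.4.6, pandas 2.3.3, SciPy 1.17.1 and matplotlib 3.10.9 were used.

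The 10 genes, lists and tests were chosen with earlier results of these data known. The text names the 10 genes, Axl and Mertk. From each pathway list it takes up to 3 further genes of the largest ratio with a mean of at least 50 and the gene of the highest level per length. Marker lists give their most abundant gene and up to 2 of the largest ratio, printed here for alveolar macrophages, monocytes, endothelium and neutrophils. For dendritic cells, epithelium, eosinophils and the T, NK and innate lymphoid list only the most abundant gene is printed by this rule. One gene that the rule takes is not reported here. For Gpr132 the 3 genes nearest in level are named. Siglecf, Itgax, Elane, Epx, Ada, S1pr2, S1pr4, S1pr5, Mfsd2b, Pnp, Lpar1, Plcb4, Entpd4 and the receptor genes at 0 or 1 read were added after their values were seen. Il7r, Cd3e, Ly6g, Camp, Mpo and Plcb2 were added in the same way.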

Additional observations from a re-analysis of the deposited data

How the results depend on the processing

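The alternatives were a pseudocount of 1 or 50 in place of 10, no minimum mean or a mean of at least 100, scaling to total assigned reads or by median-of-ratios factors from these 2 libraries alone, a higher or a lower fold, lists without genes within 20 Mb of Mertk or Axl, and the longest transcript as length. The count of the 10 genes past the fold stayed 0 in each direction under all that bear on it, the count with an interval above 1 stayed 4, and the direction of the 10 ratios was kept except for P2rx4, which ran from -0.01 to 0.01 on the log2 scale. With median-of-ratios factors from these 2 libraries alone the count with an interval below 1 was 0, where P2ry14 had been the 1. The median over all pathway lists, 0.02, was 0.011 with a pseudocount of 50, 0.0058 with no minimum mean and 0.035 with median-of-ratios factors. The median of the enzyme and transporter list with Entpd1 and Nt5e, -0.06, was -0.0062 with no minimum mean and -0.011 at a mean of at least 100. That of the lysolipid list with Gpr132, 0.11, was 0.061 with no minimum mean, and that of the G protein list, 0.045, was 0.029 without genes near Mertk or Axl and 0.060 with median-of-ratios factors. The log2 ratio of the summed alveolar macrophage markers, -0.20, was -0.191 with total reads and -0.186 with median-of-ratios factors. These scalings moved the median of all measured genes to 0.0049 and 0.011. No replicate could be left out, and no paired analysis was possible because each genotype has 1 library. Depth limits S1pr1 and Adora2b most, and a difference between animals cannot be separated from a difference between genotypes.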
